A study of Mus musculus with 6 samples.

Results

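Mouse lysozyme and monocyte genes were followed in 6 single-cell RNA-seq libraries of cultured granulocyte-macrophage progenitors. Of the 10 genes, Lyz1 and Lyz2 are lysozymes, Ccr2 and Ms4a6c are cell surface genes, and Mpeg1, Ctss and Psap are vacuolar and lysosomal genes. The products of Ly86, F13a1 and Fcnb are released. All 10 genes were chosen by name from the 27998 gene columns of the count table. The rule that lists them uses no measured value, but the choice was made with earlier results of these data known. All 10 had a column, and 8 of them reached a mean level of 20 CPM (UMI counts scaled to 1e6 per library) over the 6 libraries. Lyz2 and Ly86 did not.

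The cells were Lys-GFP-ER-HoxA9 cells, labelled as strain C57BI/6. They are bone marrow progenitors (iGMPs) kept immature by a HOXA9 protein joined to the hormone-binding part of an estrogen receptor that carries the G400V change, so that estradiol holds HOXA9 active. All cultures received stem cell factor from a hamster cell line that secretes it. In the CAF-1 OFF arm, a clone with an IPTG-inducible hairpin against Chaf1b was grown with 150 ng/ml estradiol and sampled at 0 h, and after 48 and 96 h with 500 µM IPTG. In the HOXA9 OFF arm, a clone with a control vector was sampled at 0 h with 150 ng/ml estradiol and 48 and 96 h after estradiol was washed out. Each arm is therefore 1 clone, and each time point is 1 library of live sorted cells. No test between groups was possible, no p-value is given, and differences are described by size. A gene is said to rise or fall where its log2 ratio, after adding 10 CPM to both libraries, reached a 2-fold change. Intervals are exact 95% intervals for counting error only.

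Lysozyme cleaves bacterial cell walls and is stored or secreted by phagocytes. The mouse has a pair of such genes side by side: Lyz2 encodes lysozyme M, the form of macrophages and neutrophils, and Lyz1 encodes lysozyme P, best known from the Paneth cells of the gut. Monocytes and neutrophils share a progenitor, and genes such as Ccr2, Ms4a6c and Csf1r are used to mark the monocyte side, while Fcnb is a gene of early granulocyte stages. The other genes here serve killing, protein breakdown and lipid breakdown in phagocytes of several kinds, so their presence alone does not mark a monocyte.

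The promoters of both lysozyme genes are shown first because almost all UMIs of the pair were assigned to Lyz1. The genes are neighbours on the minus strand of chromosome 10 in GRCm38.p6 (RefSeq), Lyz2 at chr10:117277541-117282272 and Lyz1 at chr10:117287795-117292868. The 250 bases before each start site, at chr10:117292869-117293118 for Lyz1 and chr10:117282273-117282522 for Lyz2, are printed 5′ to 3′ on the gene's strand, and the capitals mark the longest run that both share.
Lyz1: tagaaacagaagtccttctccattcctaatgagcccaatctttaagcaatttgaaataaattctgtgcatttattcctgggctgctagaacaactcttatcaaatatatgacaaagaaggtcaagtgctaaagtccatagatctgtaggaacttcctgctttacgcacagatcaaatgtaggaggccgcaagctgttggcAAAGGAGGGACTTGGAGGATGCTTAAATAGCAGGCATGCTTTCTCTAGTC
Lyz2: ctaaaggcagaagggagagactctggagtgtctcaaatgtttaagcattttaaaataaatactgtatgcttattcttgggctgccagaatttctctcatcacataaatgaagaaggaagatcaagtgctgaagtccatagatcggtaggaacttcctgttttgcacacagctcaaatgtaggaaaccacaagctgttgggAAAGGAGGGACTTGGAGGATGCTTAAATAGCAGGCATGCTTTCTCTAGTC

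The shared run is the last 50 bases before the start site. In a global alignment, identity was 92.0% over the nearest 100 bases and 70.6% over the 150 bases farther out. Both strands of the 300-base promoter windows (the 250 bases and 50 after the start site) were searched for GAGGAA, the core bound by PU.1, and for TTGCNNAA, a C/EBP core. The C/EBP letters were found 1 time for Lyz1 and not for Lyz2, and 10.8% of 32851 promoters held them. The PU.1 letters were in neither lysozyme window, and 28.3% of promoters held them. Of all 10 genes, Fcnb also held the C/EBP letters, and F13a1, Ctss and Psap held the PU.1 letters. A match describes letters, not a bound site.

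The transcripts of the pair are closer than their promoters. Coding sequences were 95.1% identical and the parts after the stop codon 96.1% identical in the GENCODE transcripts, which come from an older mouse assembly. Of the 90-base windows of the Lyz1 transcript, 3.74% were also found without change in Lyz2, and of the 50-base windows 16.05%. Cell Ranger counts a read only where it maps to a single gene, so some lysozyme reads may be left out, and the split between the copies is less certain than their sum.

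The libraries held 473 to 1510 kept cells and 3524285 to 5589486 unique molecular identifiers (UMIs, 1 per captured transcript molecule). Median UMIs per cell ran from 2043.5 at HOXA9 OFF 96 h to 8660 at HOXA9 OFF 0 h. The share of barcodes removed by the mitochondrial and gene number limits went from 66.2% to 0.198% between these same libraries, and its part in the differences was not tested. Among kept cells, 16 barcode sequences occurred in more than 1 library. Chaf1b, which encodes a CAF-1 subunit, stood at 35.6, 3.22 and 6.49 CPM over the CAF-1 OFF course, and at 51.5, 15.3 and 1.13 CPM over the HOXA9 OFF course. The progenitor marker Cd34 was at 756 and 660 CPM in the 0 h libraries of these arms.

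Lyz1 went from no UMI to a clear signal in both arms, and Lyz2 did not. Lyz1 had 0 UMIs in each 0 h library. At 48 and 96 h it had 170 and 611 UMIs in the CAF-1 OFF arm, and 234 and 750 UMIs in the HOXA9 OFF arm. Scaled, this was 30.4 (26.0 to 35.3) and 113 (104 to 123) CPM in the CAF-1 OFF arm, against 44.1 (38.6 to 50.1) and 213 (198 to 229) CPM in the HOXA9 OFF arm. With 0 h set to a floor of 3 counts per library, the CAF-1 OFF arm had at least 42.7-fold higher Lyz1 at 48 h, and the HOXA9 OFF arm at least 61.5-fold higher. The step from 48 to 96 h was 3.72-fold (3.14 to 4.44) in the CAF-1 OFF arm and 4.83-fold (4.16 to 5.62) in the HOXA9 OFF arm. The arms differed 1.88-fold at 96 h, HOXA9 OFF being the higher.

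Lyz2 had 0, 4 and 1 UMIs over the CAF-1 OFF course, and 0, 1 and 2 UMIs in the HOXA9 OFF arm. All 8 of these UMIs lay in separate cells. Of those 8 cells 0 held a Lyz1 UMI, where 442 of all 5872 kept cells held one. Lyz2 made up 0.451% (0.195 to 0.887) of the 1773 UMIs assigned to the pair. The other lysozyme family genes with a column, 8 in number, had 2 UMIs in all. Yeats4, on the far side of Lyz2, was at 76.4 to 164 CPM in every library, and Cpsf6, next to Lyz1, at 39.4 to 74.5 CPM. The gene 9530003J23Rik, between Yeats4 and Lyz2, had 0 UMIs. The Lys-GFP reporter bears directly on this value. It places a green fluorescent protein gene in the lysozyme M gene, Lyz2, so that a reporter allele no longer gives a normal Lyz2 transcript. The zygosity of the reporter is not given in the sources used here, and the count table has no reporter column. The study followed the fluorescence of this reporter by flow cytometry as a sign of differentiation. It reports that the signal rose with IPTG in clones carrying the Chaf1b hairpin, and also once estradiol was taken away. That readout was not analysed here, and its relation to these Lyz2 counts was not tested. Lyz1 had 1765 UMIs over all libraries, and the part of reads dropped for matching both copies was not tested. From the counts alone, a reporter allele and a locus without transcription cannot be told apart. Lyz2 is therefore not read as a measure of monocyte or neutrophil character here.

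**Figure D1:**
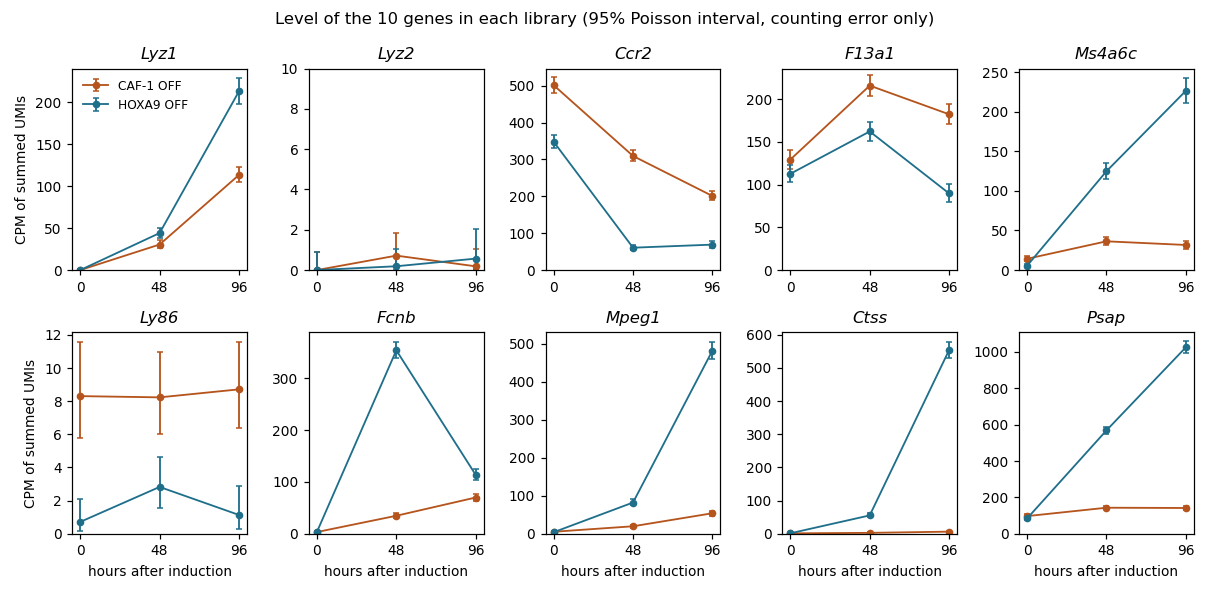
CPM of UMIs summed over kept cells (y axis, linear from 0, own scale per gene) against hours after induction (x axis) for the 10 genes, with CAF-1 OFF in orange, HOXA9 OFF in blue and bars for the exact 95% Poisson interval. Lyz1 starts at 0 in both arms and reaches 113 and 213 CPM, Ccr2 falls in both, and Ctss, Psap and Mpeg1 climb to 554, 1025 and 482 CPM in the HOXA9 OFF arm, while Lyz2 stays near 0.

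Lyz1 was found in a minority of cells. Unthinned, a Lyz1 UMI was found in 67 of 927 cells at CAF-1 OFF 48 h and 195 of 911 at CAF-1 OFF 96 h, and in 66 of 1404 and 114 of 1510 cells at HOXA9 OFF 48 and 96 h. At HOXA9 OFF 96 h the 10 cells with the most Lyz1 UMIs held 67.6% of them, with 26 to 106 UMIs each. At HOXA9 OFF 48 h the 10 highest cells held 67.5%, at CAF-1 OFF 48 h 55.9%, and at CAF-1 OFF 96 h 28.3%. Genes with totals within 2-fold of that of Lyz1 had a median share of 6.49% in their own 10 highest cells at HOXA9 OFF 96 h, over 818 genes, and 1 of them had a higher share than Lyz1. At CAF-1 OFF 96 h that median was 7.12% over 1625 genes, and 2 had a higher share. In the HOXA9 OFF arm most Lyz1 UMIs thus lay in 10 cells, while at CAF-1 OFF 96 h most lay outside the 10 highest. Its 10 highest cells at HOXA9 OFF 96 h had a median of 2949.5 UMIs of all genes, against 2043.5 for that library.

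Ccr2, the receptor through which monocytes follow Ccl2 and Ccl7 out of the marrow, was the 1 gene of the 10 that was high before induction and fell. It stood at 501 (480 to 523), 309 (295 to 324) and 201 (189 to 213) CPM over the CAF-1 OFF course. In the HOXA9 OFF arm it stood at 348 (330 to 366), 60.6 (54.2 to 67.6) and 69.0 (60.6 to 78.2) CPM. At 96 h it was 2.49-fold (2.32 to 2.69) lower in the CAF-1 OFF arm and 5.04-fold (4.40 to 5.80) lower in the HOXA9 OFF arm. The decline was gradual in the CAF-1 OFF arm and had reached its low level by 48 h in the HOXA9 OFF arm, where the ratio of 96 to 48 h was 1.14 (0.959 to 1.35). The 0 h libraries themselves differed 1.44-fold (1.35 to 1.54), CAF-1 OFF being the higher.

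Ms4a6c encodes a membrane protein of a family whose members are used as markers of monocytes and macrophages. It was at 14.2 (10.9 to 18.3), 36.3 (31.5 to 41.7) and 31.7 (27.1 to 36.8) CPM in the CAF-1 OFF arm, and at 5.49 (3.48 to 8.24), 124.8 (116 to 135) and 226 (211 to 243) CPM in the HOXA9 OFF arm. The rise in the HOXA9 OFF arm was 22.7-fold (15.03 to 36.1) at 48 h and 41.3-fold (27.3 to 65.5) at 96 h. In the CAF-1 OFF arm the fold was 2.55 (1.90 to 3.46) at 48 h, which on the log2 scale after adding 10 CPM was 0.93 and short of the 2-fold size. The family has 15 other members with a column, 11 of them with a UMI. Also higher at HOXA9 OFF 96 h were Ms4a4c, Ms4a6b, Ms4a6d and Ms4a7, at 110, 90.5, 98.5 and 101.3 CPM against 0 to 4.53 CPM at 0 h. Ms4a2, a gene of mast cells and basophils, fell there from 22.7 to 1.42 CPM. Ms4a3, a gene of granulocyte progenitors, first went from 64.9 to 934 CPM at HOXA9 OFF 48 h and was at 14.2 CPM at 96 h. In CAF-1 OFF at 96 h Ms4a3, Ms4a4c and Ms4a6d rose, to 1302, 17.6 and 84.2 CPM, and Ms4a7 was at 3.15 CPM.

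Ly86 encodes MD-1, the secreted partner of the surface receptor Cd180. Its levels were low throughout, at 8.30, 8.23 and 8.71 CPM in the CAF-1 OFF arm and 0.716, 2.82 and 1.13 CPM in the HOXA9 OFF arm. The arms already differed at 0 h, with 35 UMIs in the CAF-1 OFF arm and 3 in the HOXA9 OFF arm. Over time HOXA9 OFF had 3, 15 and 4 UMIs, where the 48 h value was 3.95-fold (1.12 to 21.3) that of 0 h, and the CAF-1 OFF values did not differ beyond counting error. Cd180 was at 12.8 to 19.3 CPM in the 6 libraries. Of 6 genes of these receptor complexes, Ly96, Tlr2, Cd14 and Myd88 rose at HOXA9 OFF 96 h, and Tlr4 and Cd14 at CAF-1 OFF 96 h. Ly96, which encodes MD-2, went from 8.11 to 27.7 and 96.5 CPM in the HOXA9 OFF arm, and Cd14 from 0 to 29.2 and 87.7 CPM. Tlr4 was at 3.58, 6.97 and 9.65 CPM there. Over the CAF-1 OFF course Tlr4 was at 2.14, 10.4 and 14.8 CPM, and Ly96 at 6.17, 5.55 and 5.38 CPM.

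F13a1, the catalytic A subunit of coagulation factor XIII, stayed within 2-fold of its 0 h level in all 4 later libraries. It was at 129 (119 to 141), 216 (204 to 228) and 182 (171 to 194) CPM in the CAF-1 OFF arm, and at 113 (103 to 123), 162 (151 to 173) and 89.7 (80.0 to 100.1) CPM in the HOXA9 OFF arm. The highest value of each arm was at 48 h. The ratio of 48 to 0 h was 1.67 (1.51 to 1.85) in the CAF-1 OFF arm and 1.44 (1.29 to 1.61) in the HOXA9 OFF arm, and neither reached 2-fold. At HOXA9 OFF 96 h the log2 ratio was -0.30, with a sign that depended on scaling: it was 0.14 with TMM factors and 0.22 with median-of-ratios factors. Among the other transglutaminase genes, Tgm3 went from 0.949 to 114 and 348 CPM in the CAF-1 OFF arm, and Tgm2 from 1.91 to 99.1 and 36.9 CPM in the HOXA9 OFF arm.

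Fcnb, which encodes ficolin B, a lectin that binds microbial sugars and can start the lectin pathway of complement, was transient in the HOXA9 OFF arm and climbed in the CAF-1 OFF arm. In the HOXA9 OFF arm it was at 3.82 (2.18 to 6.20), 354 (338 to 370) and 114 (103 to 125.5) CPM. In the CAF-1 OFF arm it was at 3.32 (1.82 to 5.57), 34.7 (29.996 to 39.95) and 69.9 (63.0 to 77.3) CPM. From 48 to 96 h Fcnb dropped 3.11-fold (2.79 to 3.47) in the HOXA9 OFF arm and went 2.01-fold (1.69 to 2.41) higher in the CAF-1 OFF arm, which stayed short of the 2-fold size after adding 10 CPM. Of the ficolin and lectin pathway list, 6 of 8 genes had a UMI, and C3, Cfp and C5ar1 rose in the HOXA9 OFF arm, to 231, 303 and 388 CPM at 96 h. Fcna, the other ficolin gene, had at most 0.188 CPM in any library.

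Mpeg1, Ctss and Psap shared a steep rise in the HOXA9 OFF arm and differed in the CAF-1 OFF arm. Mpeg1 encodes perforin-2, which forms pores in engulfed bacteria. It was at 4.06 (2.36 to 6.50), 82.3 (74.8 to 90.4) and 482 (459 to 506) CPM in the HOXA9 OFF arm, a 119-fold (74.0 to 204) rise, and at 5.22, 19.7 and 53.9 CPM in the CAF-1 OFF arm, a 10.3-fold (6.70 to 16.7) rise.

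Ctss encodes cathepsin S, the protease that trims the invariant chain Cd74 from class II molecules. It was at 1.43 (0.525 to 3.12), 55.4 (49.2 to 62.1) and 554 (529 to 579) CPM in the HOXA9 OFF arm. The 0 h value is 6 UMIs, and the 96 h fold of 387 (177 to 1055) is correspondingly loose. In the CAF-1 OFF arm the counts were 5, 15 and 34 UMIs, or 1.19, 2.68 and 6.30 CPM. The fold at 96 h was 5.31 (2.07 to 17.4). The log2 ratio after adding 10 CPM, more than these levels themselves, was 0.54 and short of the 2-fold size, and with 1 CPM added it was 1.74. At 96 h the arms lay 87.8-fold (62.6 to 127) apart, the widest gap between arms among the 10 genes.

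Psap encodes prosaposin, which is cut into the saposins that help lysosomal enzymes break down sphingolipids. It was at 84.2 (75.7 to 93.5), 568 (548 to 589) and 1025 (992 to 1059) CPM in the HOXA9 OFF arm, and at 97.0 (87.9 to 107), 143 (133 to 153) and 142 (132 to 152) CPM in the CAF-1 OFF arm. Its 12.2-fold (10.9 to 13.6) rise in the HOXA9 OFF arm stood beside 1.46-fold (1.29 to 1.65) in the CAF-1 OFF arm.

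Other lysosomal genes moved in part with these. Of 10 further cathepsin and legumain genes, 9 had a UMI, and Ctsa, Ctsb, Ctsc, Ctsd, Ctsl and Lgmn rose in HOXA9 OFF at 96 h. Ctsd, an aspartic protease, went from 212 to 1407 CPM and Ctsb from 53.2 to 424 CPM. In CAF-1 OFF at 96 h Ctsd was the only one of this list that rose, from 209 to 505 CPM. Among lysosomal membrane and cofactor genes, Lamp1, Lamp2 and Grn rose in HOXA9 OFF at 96 h, and Gm2a and Grn in the CAF-1 OFF arm. Over the cathepsin and legumain list the median log2 ratio was 1.32 at HOXA9 OFF 96 h and 0.36 at CAF-1 OFF 96 h, beside -0.56 and -0.08 over the 4789 genes whose mean reached 20 CPM.

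More of the 10 genes, and more of all genes, reached 2-fold in the HOXA9 OFF arm. At CAF-1 OFF 48 h 2 of the 10 rose (Lyz1 and Fcnb) and 0 fell, where 2.76% of the 4789 genes rose and 0.0418% fell. At CAF-1 OFF 96 h 3 rose (Lyz1, Fcnb and Mpeg1) and Ccr2 fell, where 5.22% of genes rose and 0.856% fell. At HOXA9 OFF 48 h 6 rose (Lyz1, Ms4a6c, Fcnb, Mpeg1, Ctss and Psap) and Ccr2 fell, where 13% of genes rose and 19.6% fell. At HOXA9 OFF 96 h the same 6 rose and Ccr2 fell, where 18.1% of genes rose and 39.8% fell. All the genes counted were among the 8 whose mean reached 20 CPM, a level that Lyz1, Ctss and others reached through the later libraries alone, so the counts are a description. Both later libraries of an arm share its 0 h library.

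**Figure D2:**
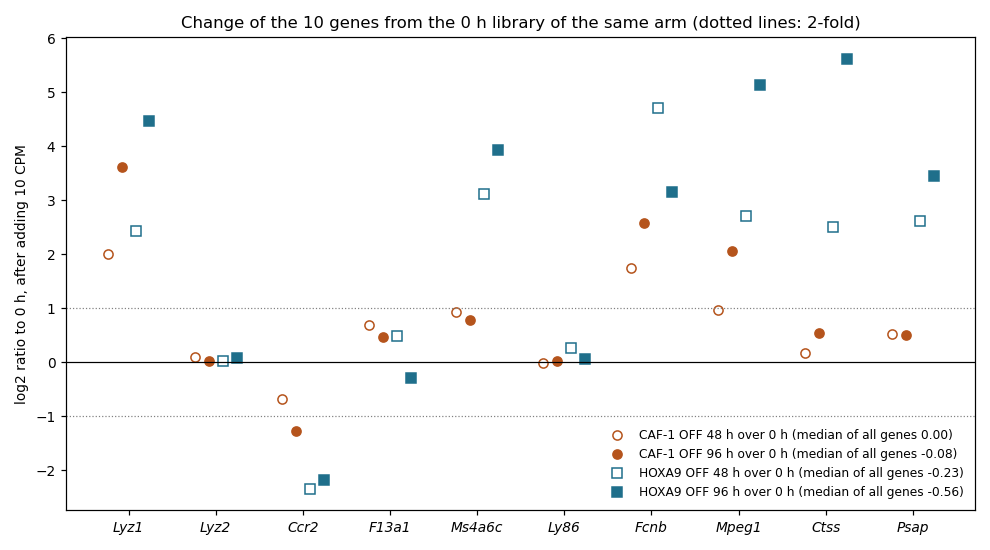
Log2 ratio to the 0 h library of the same arm after adding 10 CPM (y axis) for the 10 genes (x axis), with circles for CAF-1 OFF and squares for HOXA9 OFF, open at 48 h and filled at 96 h. Dotted lines mark 2-fold, and the legend gives the median over the genes whose mean reached 20 CPM, which was -0.56 at HOXA9 OFF 96 h, where Ctss and Mpeg1 stand at 5.62 and 5.13.

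Between 48 and 96 h in the CAF-1 OFF arm, Lyz1 and Mpeg1 went up at least 2-fold and 0 of the 10 went down, where 0.710% of genes went up and 0.167% down. In the HOXA9 OFF arm over the same interval Lyz1, Mpeg1 and Ctss went up and Fcnb down, where 6.56% of genes went up and 17.8% down. Between the 0 h libraries of the arms 0 of the 10 genes differed 2-fold after adding 10 CPM, where 0.752% of genes were higher and 0.146% lower in the HOXA9 OFF arm. In plain CPM, Ms4a6c was 2.59-fold (1.58 to 4.396) and Ly86 11.6-fold (3.66 to 58.9) lower in the HOXA9 OFF arm at 0 h.

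Depth per cell fell over the HOXA9 OFF course, so shares of cells with a UMI were compared after thinning each cell to 1300 UMIs. Cells with fewer UMIs were left out, so that 1376 of 1510 cells remained at HOXA9 OFF 96 h. Mpeg1 was then found in 0.847% of cells at HOXA9 OFF 0 h, 12.2% at 48 h and 43.5% (40.8 to 46.1) at 96 h. Psap was found in 9.75%, 42.3% and 54.6% of cells, and Ctss in 0.212%, 6.47% and 30.7%. Ms4a6c stayed in a minority, with 0.636%, 9.01% (7.55 to 10.6) and 7.56% (6.22 to 9.08) of cells, although its CPM went up 1.81-fold (1.63 to 2.01) from 48 to 96 h. UMIs of Ms4a6c were thus concentrated: unthinned, its cells held a mean of 2.79 UMIs at 48 h and 5.87 at 96 h. Fcnb was in 23.9% and 9.45% of thinned cells at 48 and 96 h, and Ccr2 in 33.5%, 6.32% and 3.49% at 0, 48 and 96 h. Unthinned, the shares at HOXA9 OFF 96 h were 58.9% for Mpeg1, 66.9% for Psap, 38.0% for Ctss and 9.01% for Ms4a6c.

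The same shares were taken in the CAF-1 OFF arm. Ccr2 was in 45.3%, 30.4% and 20.6% of cells at 0, 48 and 96 h. Lyz1 was in 0%, 2.21% and 8.54% (6.80 to 10.6) of cells, where 0 of 633 cells has an exact upper limit of 0.581%. Fcnb was in 0.632%, 3.53% and 8.43% of cells. The 96 h share of Lyz1 in the CAF-1 OFF arm was above that in the HOXA9 OFF arm, 5.23% (4.12 to 6.54), although its CPM was lower. Unthinned, these Lyz1 shares were 21.4% and 7.55%. As a rough background, any of 7 genes picked as not expressed in blood cells had a UMI in 0.199% to 1.98% of unthinned cells. Almost all of it was Pmel, which went from 2 to 13 and 18 UMIs over the CAF-1 OFF course. It is therefore no fixed background level, and unthinned shares run higher than thinned ones. With these limits, thinned shares under about that size are not read as expression.

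**Figure D3:**
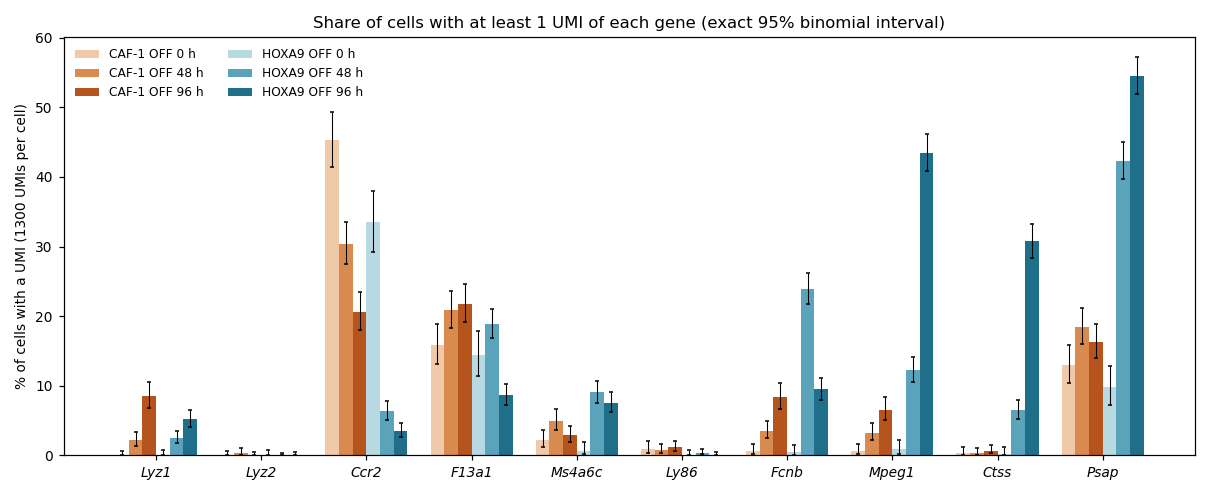
Percent of cells with at least 1 UMI of each gene (y axis) after thinning each cell to 1300 UMIs, for the 10 genes (x axis) and the 6 libraries (colours), with exact 95% binomial intervals. Psap, Mpeg1 and Ctss spread to 54.6%, 43.5% and 30.7% of HOXA9 OFF 96 h cells, Ms4a6c stays under 10%, and Lyz1 is in more cells of CAF-1 OFF than of HOXA9 OFF at 96 h.

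To see which cells held these transcripts, cells of the 6 libraries were clustered together with the 10 genes left out. With 1 library per group, a cluster made up mostly of 1 library may be that library and not a cell type. At HOXA9 OFF 96 h, 1256 of 1510 cells fell in a cluster led by Retnlg, S100a9, Ltf and S100a8 (neutrophil-like, 4 of the neutrophil markers among its 10 leading genes). A cluster led by Prg2, Prg3, Epx and Alox15 held 112 cells (eosinophil-like, 4 markers). Another cluster held 129 cells of HOXA9 OFF 96 h, 9 of HOXA9 OFF 48 h and 0 of CAF-1 OFF. Its leading genes were Ccl5, Clec4n, Cd74, Ccl2, Ms4a7, Ifit3 and Ms4a4c. None of the 12 monocyte markers was among its 10 leading genes and 1 dendritic marker, Cd74, was, so it is given no cell type name and is called the Ccl5/Cd74 cluster.

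The Ccl5/Cd74 cluster was 8.54% of the cells and 14.2% of the UMIs of HOXA9 OFF 96 h, and it held most transcripts of several of the 10 genes. It held 95.9% of Ms4a6c UMIs, 93.4% of Ccr2 UMIs and 63.2% of Ctss UMIs. For F13a1 the share was 56.3%, and for Lyz1 and Psap 52.8% each. Mpeg1, with 24.0%, was only mildly concentrated there, and Fcnb, with 5.74%, lay mainly in the neutrophil-like cells, which held 85.8%. All 4 Ly86 UMIs and both Lyz2 UMIs of the library were in the Ccl5/Cd74 cluster as well.

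In levels, Ms4a6c was at 1527 (1420 to 1639) CPM in the Ccl5/Cd74 cluster, 11.98 CPM in neutrophil-like and 3.53 CPM in eosinophil-like cells. Ccr2 was at 453 (396 to 516), 4.49 and 7.06 CPM in the same order. The Ccr2 level of the Ccl5/Cd74 cluster was thus above the 348 CPM of the whole HOXA9 OFF 0 h library, while the neutrophil-like cells had almost none. Ctss was at 2461, 267 and 10.6 CPM, and Psap at 3808, 613 and 194 CPM. Mpeg1 was shared most evenly, at 814, 456 and 237 CPM. Lyz1 was at 790, 132 and 0 CPM, and F13a1 at 355, 47.9 and 21.2 CPM. Fcnb ran the other way between the first 2, at 45.9, 129 and 7.06 CPM.

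Cells with a UMI followed the same order. Ms4a6c was found in 83.7% of Ccl5/Cd74 cells and 2.15% of neutrophil-like cells, Ccr2 in 52.7% and 0.876%, and Ctss in 97.7% and 35.4%. Lyz1 was found in 22.5% and 6.69% of them, and 6 of its 10 highest cells lay in the Ccl5/Cd74 cluster and 4 among the neutrophil-like cells. In eosinophil-like cells the share of Ms4a6c was 0.893% and that of Ctss 2.68%. Over all libraries the Ccl5/Cd74 cells had a median of 3445.5 UMIs, the neutrophil-like cells 1934 and the eosinophil-like cells 3004, so the first and the last had similar depth. S100a8, an abundant neutrophil gene, had a UMI in 99.2% of Ccl5/Cd74 cells and 98.2% of eosinophil-like cells at 96 h, at 9243 and 2235 CPM against 83566 CPM in neutrophil-like cells. Whether free RNA gave these UMIs was not tested.

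The lists of monocyte and neutrophil markers describe these cells further. Of 12 monocyte markers, 11 had a UMI in the Ccl5/Cd74 or the neutrophil-like cells, and 10 were at least 2-fold higher in the Ccl5/Cd74 cells. Csf1r, the receptor for macrophage colony-stimulating factor, was at 345 against 67.8 CPM, Fcgr1 at 421 against 16.5 CPM, Irf8, a factor of monocyte and dendritic cells, at 136 against 5.62 CPM and Cx3cr1 at 55.9 against 2.62 CPM. Itgam, shared with neutrophils, was lower, at 124 against 249 CPM. These genes took part in the clustering, so their values are a description and no test. The share of all genes past 2-fold between these clusters was not taken, so the count of 10 cannot be weighed against it. All 10 neutrophil markers were lower in the Ccl5/Cd74 cells. Of the class II genes that Ctss serves, H2-Aa, H2-Ab1 and H2-Eb1 had 0 UMIs at HOXA9 OFF 96 h, while their chaperone Cd74 was at 132 CPM in that library and 834 CPM in the cluster. Cst3 and Cstb, inhibitors of cathepsins, were at 1333 and 837 CPM there, against 458 and 157 CPM at 0 h, both having risen. Over the CAF-1 OFF course H2-Aa was at 0, 7.87 and 14.1 CPM and Cd74 at 0, 1.79 and 8.90 CPM. H2-Ab1 and H2-Eb1 stayed at or below 1.79 CPM in that arm.

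**Figure D4:**
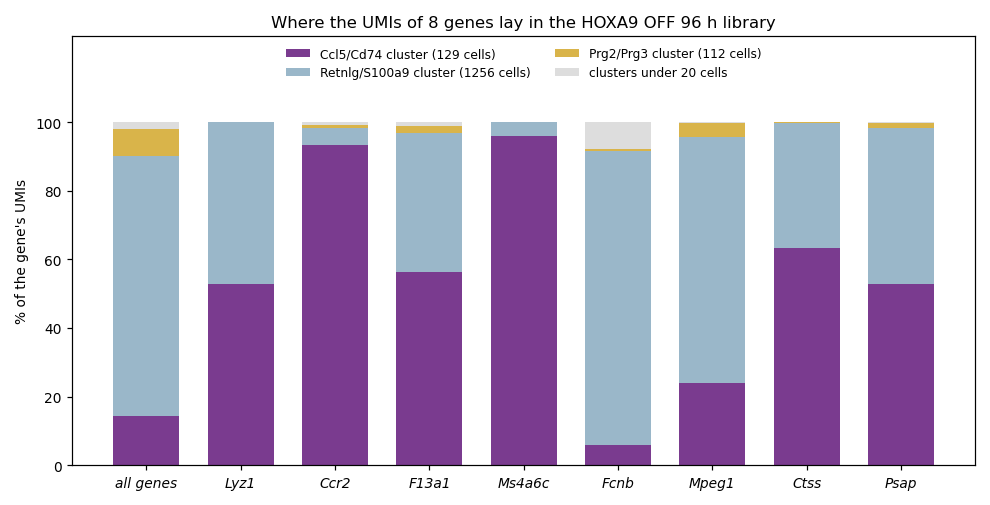
Percent of each gene's UMIs (y axis) that lay in the Ccl5/Cd74, Retnlg/S100a9 (neutrophil-like) and Prg2/Prg3 (eosinophil-like) clusters of the HOXA9 OFF 96 h library, for 8 genes and for all genes together (x axis). The Ccl5/Cd74 cluster of 129 cells holds 14.2% of all UMIs but 95.9% of those of Ms4a6c and 93.4% of those of Ccr2, and only 5.74% of those of Fcnb.

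The 48 h library of HOXA9 OFF already held clusters that differed in the same genes when the clustering was made finer (Leiden resolution 1.0). Its largest part, 408 cells led by Dpep2, Wfdc17 and Lgals3, stood beside 388 cells led by Hsd11b1 and Prss57 and 335 cells led by Mogat2, Lrg1, Ngp and Camp. The Dpep2/Wfdc17 cells held 70.7% of Ctss, 54.3% of Lyz1, 53.8% of Psap, 53.7% of Ccr2 and 52.0% of Ms4a6c UMIs, from 29.1% of the cells. Only 7.87% of Fcnb UMIs were theirs.

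In the Mogat2/Lrg1 cells, which carry the neutrophil genes Ngp and Camp, Fcnb was at 837 CPM and Ms4a6c at 5.72 CPM. In the Dpep2/Wfdc17 cells the order was turned round, with Fcnb at 105 CPM and Ms4a6c at 246 CPM. The Hsd11b1/Prss57 cells had both, Fcnb at 432 CPM and Ms4a6c at 122 CPM. Psap, at 1158 CPM in the Dpep2/Wfdc17 cells, was at 422 and 348 CPM in the Hsd11b1/Prss57 and Mogat2/Lrg1 cells. F13a1 varied least, at 227, 175 and 120 CPM.

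**Figure D5:**
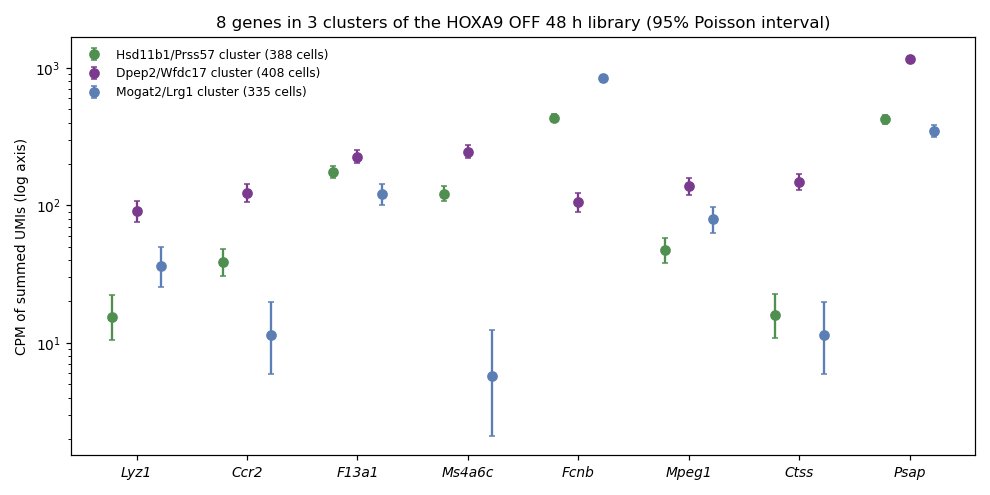
CPM of UMIs (y axis, log scale) of 8 genes (x axis) in 3 clusters of the HOXA9 OFF 48 h library, with 95% Poisson intervals. The Dpep2/Wfdc17 cells are highest for 7 of the 8 genes and lowest for Fcnb, where the Mogat2/Lrg1 cells reach 837 CPM.

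The CAF-1 OFF 96 h cells lay almost wholly (873 of 911) in 1 cluster at the main resolution, and the finer one divided them too. The 502 cells led by Cxcl3, Tgm3, Raet1e, Elane and Pf4 had Lyz1 at 158 CPM, Fcnb at 101.03 CPM, Mpeg1 at 74.2 CPM and Ms4a6c at 50.03 CPM. The 225 cells led by Pf4, Cpa3 and Nlrp10 had 57.8, 12.2, 24.4 and 4.07 CPM of these genes. The 110 cells led by Prkg2, Mmp12 and Mmp13 had the highest Ccr2, 449 CPM, against 141 CPM in the Cxcl3/Tgm3 cells and 239 CPM in the Pf4/Cpa3 cells. Another 40 cells, led by Apoc1, had 153 CPM of Lyz1 and 76.5 CPM of Mpeg1, close to the Cxcl3/Tgm3 cells. Ctss was at or below 13.5 CPM in each of these 4 clusters. Pf4 was among the 10 leading genes of the Cxcl3/Tgm3, Pf4/Cpa3 and Apoc1 cells alike, and Cpa3 also among those of the Apoc1 cells. These genes thus do not mark the Pf4/Cpa3 cells alone.

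Pairs of genes were then counted in the same thinned cells. At HOXA9 OFF 96 h Ms4a6c and Ctss were found together in 6.47% (5.23 to 7.90) of 1376 cells, beside 2.32% for the product of their separate shares. Ccr2 with Ms4a6c was found in 2.54% of cells beside a product of 0.264%. Fcnb with Mpeg1 lay on the other side, at 2.98% (2.15 to 4.02) beside 4.11%. Fcnb with Psap was also below its product, at 3.997% (3.03 to 5.17) beside 5.16%. These intervals are for the joint share alone, and the difference from the product was not tested. At CAF-1 OFF 96 h the most frequent pair, Ccr2 with F13a1, was in 4.55% of 902 cells beside a product of 4.48%. Fcnb with Mpeg1, below its product in the HOXA9 OFF arm, was above it here, at 1.88% (1.10 to 3.00) beside 0.551%. A mean of 1.63 of the 10 genes was found per thinned cell at HOXA9 OFF 96 h and 0.868 at CAF-1 OFF 96 h, and 5 or more genes were found in 3.63% and 0% of cells.

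Over the 6 libraries, which share clones and 0 h cultures, the genes with the pattern most like each gene can be named as a description. Ctss was closest to Ms4a7, Samhd1 and Cd300lf (Pearson r of log2(CPM + 10) 1.00, 1.00 and 0.999). Ms4a6c was closest to Thbs1 (0.994), Abcd2 and Tnfrsf1a. Psap was closest to Tsc22d4 (0.999), C3 and Ccng2, and Mpeg1 to Hcar2 (0.999), Tnfaip2 and Gngt2. Fcnb was closest to Hsd11b1 (0.996), Lbp and Siglecf, genes that also peaked at HOXA9 OFF 48 h. Lyz1 was closest to Pmaip1 (0.994), Gadd45a and Hhex, Ccr2 to Raly (0.998), Ranbp3 and Ubqln1, and F13a1 to Klc4 (0.992), Isca2 and Gnas. Within the 8 genes, Ms4a6c and Psap were most alike (0.980), Ctss and Psap followed (0.957), and Ccr2 ran against both (-0.92 with Ms4a6c and -0.94 with Psap).

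The CCR2 pathway and the factors of the monocyte and granulocyte lineages complete the setting. Of the Ccr2 ligand and chemokine receptor list, 9 of 10 genes had a UMI. Of these, 6 rose at HOXA9 OFF 96 h, among them the Ccr2 ligands Ccl2, from 1.43 to 342 CPM, and Ccl7, from 0 to 68.4 CPM, while in the CAF-1 OFF arm they stood at 11.7 and 0.185 CPM. Of the 12 monocyte markers 7 rose at HOXA9 OFF 96 h and 4 at CAF-1 OFF 96 h. Csf1r went from 0 to 57.6 and 114 CPM in the HOXA9 OFF arm and reached 2.22 CPM in the CAF-1 OFF arm. All 10 neutrophil markers rose at HOXA9 OFF 96 h, with a summed level of 150912 CPM against 28.2 CPM at 0 h, and the 12 monocyte markers summed to 1215 CPM against 92.6 CPM. Spi1, which encodes PU.1, went from 154 to 1049 CPM in the HOXA9 OFF arm and from 166 to 323 CPM in the CAF-1 OFF arm. Markers of other cells moved as well. The 10 eosinophil markers summed to 1483, 19373 and 3333 CPM over the HOXA9 OFF course, the 10 mast cell and basophil markers to 287, 1469 and 4050 CPM and the 10 megakaryocyte markers to 51.0, 518 and 2721 CPM over the CAF-1 OFF course. The 5 primary granule genes, such as Mpo and Elane, summed to 5581, 5258 and 79.2 CPM over the HOXA9 OFF course and to 6448, 9018 and 12927 CPM in the CAF-1 OFF arm. The part of these cell types in the changes of the 10 genes was not tested, and in summed counts more cells of a type and more RNA per cell cannot be told apart.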

How the data were processed

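Live sorted cells were profiled with 10x Chromium 3′ v2 chemistry. The authors aligned reads to mm10 (GRCm38), and deposited whole-number UMI counts per gene and barcode. The submitters' processing notes name Cell Ranger 3.0.1, Scanpy 1.4.6 and Seurat 3.0.1. The table holds 7821 barcodes in 6 libraries, mapped by barcode suffix to the labels.

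Cells with 200 to 6000 genes and at most 10% mitochondrial UMIs, the limits of the study, were kept (5872). Counts were summed per library and divided by its total (CPM). Ratios are log2 after adding 10 CPM. Folds are of plain CPM, with 0 UMIs set to 3 counts of the library's own total. CPM have Poisson intervals, folds and shares Clopper-Pearson intervals, all 95%. The background was the genes whose mean reached 20 CPM. Cells were clustered with Scanpy 1.11.5 (2000 variable genes, 30 components, Leiden resolution 0.5). Doublets were kept. Scrublet called 125 cells (2.13%), left out in an alternative. Scripts were tested on simulated data. TMM (edgeR 4.0.16) and median-of-ratios (DESeq2 1.42.0) factors were alternatives.

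The 10 genes and the 20 lists beside them (169 of 172 symbols matched a column) were chosen with earlier results of these data known. Of list genes, those changed 2-fold or highest in their list may be named, and the 3 most similar genes per gene and the 10 leading genes per cluster. Genes outside this rule (Chaf1b, Cd34, Yeats4, Cpsf6, 9530003J23Rik, Cd180, Fcna, H2-Ab1 and H2-Eb1) were named after their values were seen. Some list genes are not reported here.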

Additional observations from a re-analysis of the deposited data

Results flagged for a closer look

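Barcodes removed by the cell filters entered no value above, and some of the 10 genes had levels there that lay above those of the removed barcodes at 0 h by their counting intervals. At CAF-1 OFF 96 h the removed barcodes had 64.2 CPM of Lyz1, 245 CPM of F13a1, 41.5 CPM of Fcnb, 102 CPM of Mpeg1 and 381 CPM of Psap. At HOXA9 OFF 48 h they had 29.0 CPM of Lyz1, 164 CPM of F13a1, 48.4 CPM of Ms4a6c, 261 CPM of Fcnb, 116 CPM of Mpeg1, 33.9 CPM of Ctss and 904 CPM of Psap. These rest on few counts, such as 17 and 6 UMIs for Lyz1. The difference between removed and kept cells was not tested.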

How the results depend on the processing

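Of 40 ratios of the 10 genes to 0 h, 31 kept their side of 2-fold under all 8 alternatives, and none of the 20 past 2-fold changed sign. No paired analysis was possible because each group has 1 library. Leaving out a replicate was not possible for the same reason.

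At CAF-1 OFF 48 h the genes of the 10 that rose numbered 4 without mitochondrial and ribosomal protein genes in the total, with 1 CPM added and at a 5% mitochondrial limit (Ms4a6c and Mpeg1 pass), 1 at a 4-fold size and 0 with 50 CPM added. At CAF-1 OFF 96 h 5 rose with 1 CPM added (Ms4a6c and Ctss pass), and 0 fell at a 4-fold size.

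Over all genes, a 4-fold size gave 22 higher and 1 lower at CAF-1 OFF 48 h, 60 and 1 at CAF-1 OFF 96 h, 204 and 152 at HOXA9 OFF 48 h and 412 and 786 at HOXA9 OFF 96 h. With 50 CPM added these were 34 and 1, 94 and 7, 290 and 352, and 556 and 992. With 1 CPM added they were 260 and 8 at CAF-1 OFF 48 h and 425 and 93 at 96 h. Lower genes at CAF-1 OFF 48 h numbered 4 with no minimum level, 1 with TMM factors, with all barcodes or without called doublets, 5 without mitochondrial and ribosomal protein genes and 8 at the 5% limit. At CAF-1 OFF 96 h they numbered 22 with TMM factors, 64 without those genes and 70 at the 5% limit. Higher genes at HOXA9 OFF 96 h numbered 1391 with no minimum level and 1320 with median-of-ratios factors. Relative to CPM, the median of all genes at HOXA9 OFF 96 h moved by 0.38 with TMM, 0.44 with median-of-ratios factors and -0.38 without mitochondrial and ribosomal protein genes. The cause was not tested.

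The Lyz1 share at 96 h was 21.4% unthinned, 14.7% at 2600 UMIs and 2.77% for at least 2 UMIs in the CAF-1 OFF arm, and 7.55%, 9.39% and 1.53% in the HOXA9 OFF arm. Ms4a6c with Ctss was 8.21% unthinned and 21.1% at 2600 UMIs in the HOXA9 OFF arm at 96 h. Cells with fewer than 2600 UMIs were left out at that setting, and the median of this library was 2043.5 UMIs. Shares at 2600 UMIs are thus of a different set of cells. With 1 CPM added 14 of the 24 most similar genes stayed. At resolution 0.25 the Ccl5/Cd74 cells joined the neutrophil-like ones (1385 cells), which then held 99.9% of Ms4a6c, 98.4% of Ccr2 and 99.8% of Ctss UMIs. Shares thus depend on depth and on which cells are kept, and cluster values on resolution.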
